A study of Mus musculus with 12 samples.

Results

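The subunit genes of respiratory complexes III, IV and V were examined in hippocampal RNA of naturally aged mice. The members were all rows of the deposited FPKM table whose symbol starts with Uqcr or Atp5, is Cyc1, or has the form Cox4 to Cox8 followed by a letter a to c, together with CYTB, COX1, COX2, COX3, ATP6 and ATP8 of the mitochondrial genome. This rule matched 48 of 27833 rows, and 47 genes had a mean of at least 0.5 FPKM over the 12 libraries and were tested among 13796 genes in all. Of these, 41 were nuclear genes (9 of complex III, 15 of complex IV and 17 of complex V) and 6 were mitochondrially encoded (1, 3 and 2). FPKM is a fragment count divided by gene length and by library size, so levels of different genes can be compared per length. The gene just inside the threshold was Cox7b2, with a mean of 0.554 FPKM and 2 to 27 reads per library, and the gene just outside was Cox8c, with a mean of 0.0054 FPKM. The pattern leaves out Cox4i1 and Cox4i2, because their symbols continue with an i, as well as Ndufa4 and cytochrome c (Cycs). These 4 genes are given separately.

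All animals were male C57BL/6J mice aged 20 months with no transgene, and all received 0.2 mL per day by oral gavage for 14 days. CON mice received normal saline. PQQ-L mice received pyrroloquinoline quinone (PQQ) at 5 mg/kg/day and PQQ-H mice at 10 mg/kg/day. PQQ is a small redox-active quinone that is taken as a supplement. Sequenced libraries numbered 3 for CON, 5 for PQQ-L and 4 for PQQ-H, out of 6 mice assigned to each group. The comparison asks whether the RNA of the respiratory chain differed after PQQ, in one genome or in both.

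Complex III passes electrons from ubiquinol to cytochrome c, complex IV (cytochrome c oxidase) passes them on to oxygen, and complex V (ATP synthase) uses the resulting proton gradient to make ATP. Each complex is assembled from nuclear subunits, which are imported into the mitochondrion, and from a few subunits encoded and translated inside it. Several complex IV subunits exist as pairs of genes, with a widespread form and a form best known from heart and skeletal muscle (Cox6a2, Cox7a1, Cox8b) or testis (Cox6b2, Cox7b2). Neurons rely heavily on this machinery for ion pumping and synaptic transmission.

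Not all libraries matched the labelled tissue equally well. The summed FPKM of 9 striatal markers, among them the dopamine receptors Drd1 and Drd2, was 1307 to 3268 in 4 libraries, which were PQQ-H 1, PQQ-H 2, CON 1 and CON 3, and 37.1 to 176 in the other 8. The summed FPKM of 8 hippocampal neuron markers was 101 to 183 in those 4 libraries and 234 to 454 in the other 8. Separately, the sum of 10 choroid plexus markers, led by Ttr, was 1542 to 5440 in CON, 48.3 to 121 in PQQ-L and 20.6 to 34.2 in PQQ-H, so the groups did not overlap. Results are therefore given with all 12 libraries and without the 4 libraries with high striatal markers. The latter leaves CON 2 as the lone control, assumed to vary like the other groups. The sum of 5 thalamic markers was 90.6 in CON 2, the highest of the 12 libraries, 79.4 in CON 1 and 15.4 in CON 3. It was 14.2 to 87.9 in PQQ-L, where Calb2 alone reached 79.6 FPKM, and 10.4 to 26.9 in PQQ-H. The log2 level against the mean of all libraries, averaged over the 5 markers, weighs them equally. It was 1.34, 1.52 and −0.46 in CON 1 to 3, −0.69 to 0.49 in PQQ-L and −0.79 to −0.04 in PQQ-H. In bulk RNA, fewer cells of a type and less RNA per cell cannot be told apart. The library totals were 29656457 to 38181580 reads on genes, with a median of 35170275.

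Per length, the common subunits of the complexes were among the more abundant RNAs. The median over the 41 nuclear members of the mean FPKM was 172, against 6.26 over all genes tested. The highest nuclear levels were those of Atp5b, the catalytic beta subunit of ATP synthase, at 702 FPKM, Cox8a at 683 FPKM and Cox6a1 at 627 FPKM. Within complex III the order ran from Uqcrh, the hinge protein, at 320 FPKM to Uqcrq at 94.0 FPKM, and within complex V from Atp5b to Atp5d, the delta subunit, at 90.1 FPKM. Complex IV held both the high common subunits and the 5 low isoforms, which had means of 9.21 (Cox6a2), 6.35 (Cox8b), 4.39 (Cox6b2), 2.70 (Cox7a1) and 0.554 FPKM (Cox7b2). Those 5 made up at most 0.563% of the summed FPKM of the nuclear members in any library.

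The clearest differences lay in the low isoforms of complex IV, and most of all in Cox8b. Cox8b and Cox8a encode alternative forms of a small membrane-spanning subunit of the oxidase. Because Cox8b fell and Cox8a was not called, their promoters are shown side by side, with that of Cox6b2, the other isoform called in the comparisons below. The sequences are those of RefSeq on GRCm38.p6, 5′ to 3′ on the gene's strand, with the annotated start at base 251 of 300, and capitals mark matches to the motifs named after them.
Cox8b (chr7:140900397-140900696, minus strand): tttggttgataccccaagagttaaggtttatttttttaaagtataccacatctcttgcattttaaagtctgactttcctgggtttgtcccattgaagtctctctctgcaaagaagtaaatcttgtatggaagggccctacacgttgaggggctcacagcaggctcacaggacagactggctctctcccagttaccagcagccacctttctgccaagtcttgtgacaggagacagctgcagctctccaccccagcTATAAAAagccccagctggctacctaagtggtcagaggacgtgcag
Cox8a (chr19:7217567-7217866, minus strand): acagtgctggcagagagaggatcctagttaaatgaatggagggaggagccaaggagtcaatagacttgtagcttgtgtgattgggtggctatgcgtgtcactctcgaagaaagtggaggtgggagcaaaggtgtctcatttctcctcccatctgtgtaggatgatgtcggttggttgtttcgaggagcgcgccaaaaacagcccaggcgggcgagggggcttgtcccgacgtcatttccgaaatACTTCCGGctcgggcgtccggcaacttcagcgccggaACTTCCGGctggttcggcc
Cox6b2 (chr7:4753045-4753344, minus strand): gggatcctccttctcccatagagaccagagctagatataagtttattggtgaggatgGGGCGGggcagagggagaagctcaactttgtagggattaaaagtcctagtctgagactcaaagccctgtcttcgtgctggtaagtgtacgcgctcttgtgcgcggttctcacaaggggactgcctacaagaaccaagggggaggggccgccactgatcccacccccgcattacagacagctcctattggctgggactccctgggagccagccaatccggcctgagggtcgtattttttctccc

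Promoters of 33 of the 41 nuclear members were matched by symbol and searched on both strands for letters of factors known to act on respiratory genes. The NRF1 motif, which reads GCGCA, any base, GCGC, was found in 7 of 33 (21.2%) and in 4.78% of all 27025 promoters of the same length. The ETS motif CCGGAAGT was found in 4 (12.1%, against 4% of all), the YY1 motif AANATGGCG in 2 (6.06%, against 2.51%) and the Sp1 motif GGGCGG in 12 (36.4%, against 35.9%). The ERR motif TNAAGGTCA was found in 1 (3.03%, against 1.26%). Cox8a held 2 ETS matches on the reverse strand, Cox6b2 held 1 Sp1 match, and Cox8b held none of the 5 motifs. A TATA motif, TATAAAA, was added after the Cox8b sequence had been seen, where it starts at base 255, just after the annotated start. It occurred there and in Atp5l, that is in 6.06% of the members searched against 5.78% of all promoters. The motifs do not overlap one another in the sequences shown. The Cox8b window had a GC content of 48.3% and 2 CpG, and the Cox8a window 56% and 19 CpG. The median GC content was 55.7% over the members searched and 52.7% over all promoters. The part of GC content in the motif counts was not tested.

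Cox8b had 22.0, 8.64 and 31.8 FPKM in CON 1 to 3. In PQQ-L it had 0.919, 1.59, 1.54, 3.13 and 1.53 FPKM, and in PQQ-H 1.097, 1.11, 1.02 and 1.77 FPKM. Every PQQ library lay below every CON library, and the CON libraries themselves spanned a wide range. Behind these values stood 93 to 387 reads per CON library, 12 to 40 per PQQ-L library and 13 to 22 per PQQ-H library. The fitted log2FC, on the log2(FPKM + 0.1) scale with its standard error, was −3.42 ± 0.42 for PQQ-L (limma, adjusted p = 0.0027) and −3.80 ± 0.44 for PQQ-H (limma, adjusted p = 0.00117), or 0.0935 and 0.0718 of the CON level. As a share of Cox8a plus Cox8b, Cox8b made up 1.47% to 3.66% in CON, 0.153% to 0.482% in PQQ-L and 0.14% to 0.238% in PQQ-H. Between CON and the PQQ groups, the choroid plexus markers went the same way as this gene. All 10 of them had a log2FC below 0 in both comparisons, though Kl and Prlr overlapped CON. Both the sum of the 10 and Cox8b were lowest in CON 2 among the controls and highest in CON 3. Within PQQ-L both were highest in PQQ-L 4, but Cox8b was lowest in PQQ-L 1 and the sum in PQQ-L 5. Ttr made up most of the sum, at 42.6 to 113 FPKM in PQQ-L. By the mean log2 level of the 10 markers, PQQ-L 3 was the highest PQQ-L library (0.22) and PQQ-L 4 lay at −0.56. Within PQQ-H the highest and lowest libraries of Cox8b and of the sum differed. None of the 10 was at 0 in all libraries of a group, and their part in the Cox8b difference was not tested. Without the 4 libraries with high striatal markers, the Cox8b log2FC against CON 2 was −2.35 for PQQ-L and −2.60 for PQQ-H, and neither was called (limma, adjusted p = 0.595 and 0.252).

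Cox6b2, the testis form of a subunit facing the intermembrane space, had 8.69, 5.40 and 11.2 FPKM in CON. It had 3.76, 2.29, 3.78, 3.89 and 2.95 FPKM in PQQ-L, and 3.38, 3.01, 1.499 and 2.80 FPKM in PQQ-H. Neither PQQ group overlapped CON. The log2FC was −1.62 ± 0.30 in PQQ-H, which passed the threshold (limma, adjusted p = 0.0282), and −1.28 ± 0.29 in PQQ-L, which did not (adjusted p = 0.0881). Without CON 2 the gene was called in both PQQ groups, and without PQQ-H 3 in PQQ-L instead of PQQ-H. The call in PQQ-H was lost without CON 1 or CON 3 or without PQQ-H 3 or PQQ-H 4 (limma, adjusted p up to 0.149). It was also lost with only the 2 groups compared, with the name letter as a term and with the replicate block (limma, adjusted p = 0.187, 0.0544 and 0.177), and without the 4 libraries with high striatal markers (log2FC −1.35, adjusted p = 0.365). The choroid plexus sums ranked the CON libraries as Cox6b2 did, with CON 3 highest and CON 2 lowest. Within PQQ-L both were highest in PQQ-L 4, but Cox6b2 was lowest in PQQ-L 2 and the sum in PQQ-L 5. Within PQQ-H, Cox6b2 was highest in PQQ-H 1, where the sum was lowest. The part of the choroid plexus markers in the Cox6b2 difference was not tested. Cox6b1, the common counterpart of Cox6b2, had 481 ± 63.8 FPKM in CON (SD, n = 3), 397 ± 20.3 in PQQ-L (n = 5) and 451 ± 57.6 in PQQ-H (n = 4). It was not called (log2FC −0.27 ± 0.11 and −0.09 ± 0.11).

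The other muscle isoforms were not called. Cox7a1 had 4.16, 2.93 and 5.00 FPKM in CON, 2.96, 1.48, 2.31, 3.03 and 1.97 in PQQ-L, and 1.24, 2.55, 2.47 and 2.35 in PQQ-H, so that CON and PQQ-H did not overlap but CON and PQQ-L did. Its log2FC was −0.77 ± 0.28 for PQQ-L and −0.89 ± 0.30 for PQQ-H (limma, adjusted p = 0.226 and 0.304). Cox6a2 had 14.5, 10.7 and 12.7 FPKM in CON, 9.62, 6.32, 10.98, 6.43 and 6.36 in PQQ-L, and 10.96, 8.38, 6.25 and 7.28 in PQQ-H, overlapping in both comparisons. Its log2FC was −0.70 ± 0.22 and −0.64 ± 0.23 (limma, adjusted p = 0.201 and 0.376). Cox7b2 was too low to read, with values that overlapped in every comparison.

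**Figure D1:**
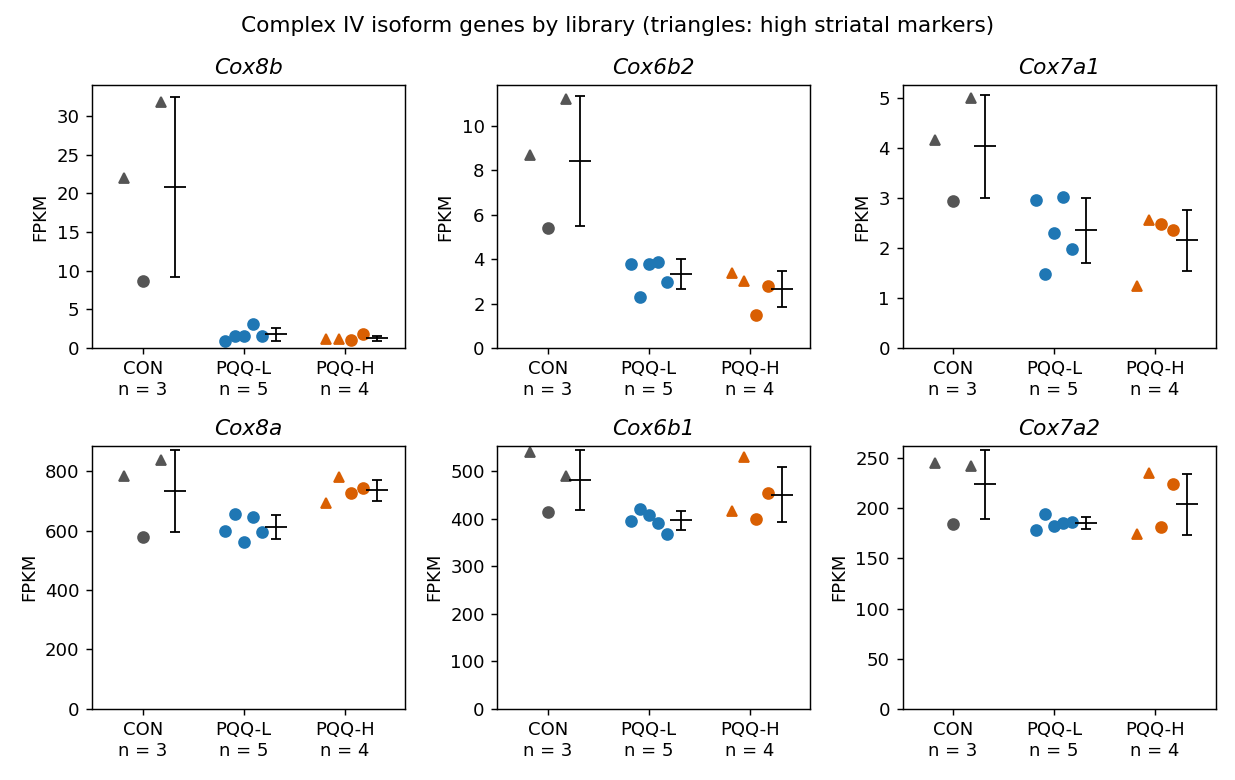
FPKM of 3 low complex IV isoforms (upper row) and their common counterparts (lower row) in each library, with the mean and SD of each group as black bars and triangles for the 4 libraries with high striatal markers. Cox8b lay at 8.64 to 31.8 FPKM in CON and at 0.919 to 3.13 FPKM in the PQQ libraries, whereas the PQQ libraries of Cox8a and Cox7a2 overlapped CON.

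In PQQ-L against CON, Cox8b was the sole member called at an adjusted p below 0.05, 1 of 47 against 0.587% of all genes tested. The fitted log2FC of the nuclear members was nevertheless below 0 in 41 of 41, where 53.9% of all genes tested lay below 0. Their median was −0.27, against a median of −0.03 over all genes tested. By complex the median was −0.23 for complex III, −0.29 for complex IV and −0.26 for complex V, and the members of the 3 complexes overlapped in their log2FC. An unadjusted p below 0.05 was found for 24 members, all lower, against 11.6% of all genes tested. The libraries of the 2 groups did not overlap for 10 members, against 7.66% of all genes tested in that direction.

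The 10 non-overlapping members included subunits of each complex. In complex III they were Uqcrc1 (a core protein), Cyc1 (cytochrome c1) and Uqcrq. Uqcrc1 had 178, 153 and 155 FPKM in CON and 142, 148, 137, 137 and 143 FPKM in PQQ-L, a log2FC of −0.19 ± 0.07 (limma, adjusted p = 0.227). In complex IV they were Cox5a and Cox7b beside Cox8b and Cox6b2. Cox7b had 218, 175 and 201 FPKM in CON and 154, 168, 156, 156 and 157 FPKM in PQQ-L, a log2FC of −0.32 ± 0.09 (limma, adjusted p = 0.169). In complex V they were Atp5b and the c-ring genes Atp5g1 and Atp5g3, whose products form the rotating ring of the synthase. Atp5g1 had 143, 130 and 157 FPKM in CON and 118, 122, 106, 112 and 102 FPKM in PQQ-L, a log2FC of −0.36 ± 0.09 and the smallest adjusted p of the complex at 0.12. Atp5b had 842, 744 and 721 FPKM in CON and 677, 706, 628, 639 and 662 FPKM in PQQ-L, a log2FC of −0.21 ± 0.08 (limma, adjusted p = 0.233). For Atp5b and Uqcrc1 the highest PQQ-L library lay close to the lowest CON library.

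The remaining named subunits overlapped between CON and PQQ-L. Uqcrh had 404, 298 and 394 FPKM in CON and 283, 308, 291, 278 and 269 FPKM in PQQ-L, so that CON 2 lay inside the PQQ-L range while CON 1 and CON 3 lay above it. CON 2 lay inside the PQQ-L range for Cox8a as well, with 784, 579 and 839 FPKM in CON and 600, 657, 562, 646 and 593 FPKM in PQQ-L. Cox6a1 had 814, 514.5 and 783 FPKM in CON and 557, 576, 529, 565 and 524 FPKM in PQQ-L, so that CON 2 lay below every PQQ-L library. Log2FC in PQQ-L was −0.34 ± 0.12 for Uqcrh, −0.25 ± 0.12 for Cox8a and −0.33 ± 0.17 for Cox6a1. Uqcr10, Uqcr11, Uqcrb and Cox6c ranged from −0.29 to −0.23. Atp5a1, the alpha subunit, had 466, 448 and 427 FPKM in CON and 397, 431, 394, 392 and 404 FPKM in PQQ-L (log2FC −0.15 ± 0.07), and Atp5md, a small membrane subunit, had a log2FC of −0.26 ± 0.13. Atp5g2, the third c-ring gene, had 137, 95.3 and 136 FPKM in CON and 95.5, 110, 104, 96.7 and 91.3 FPKM in PQQ-L (log2FC −0.29 ± 0.14).

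**Figure D2:**
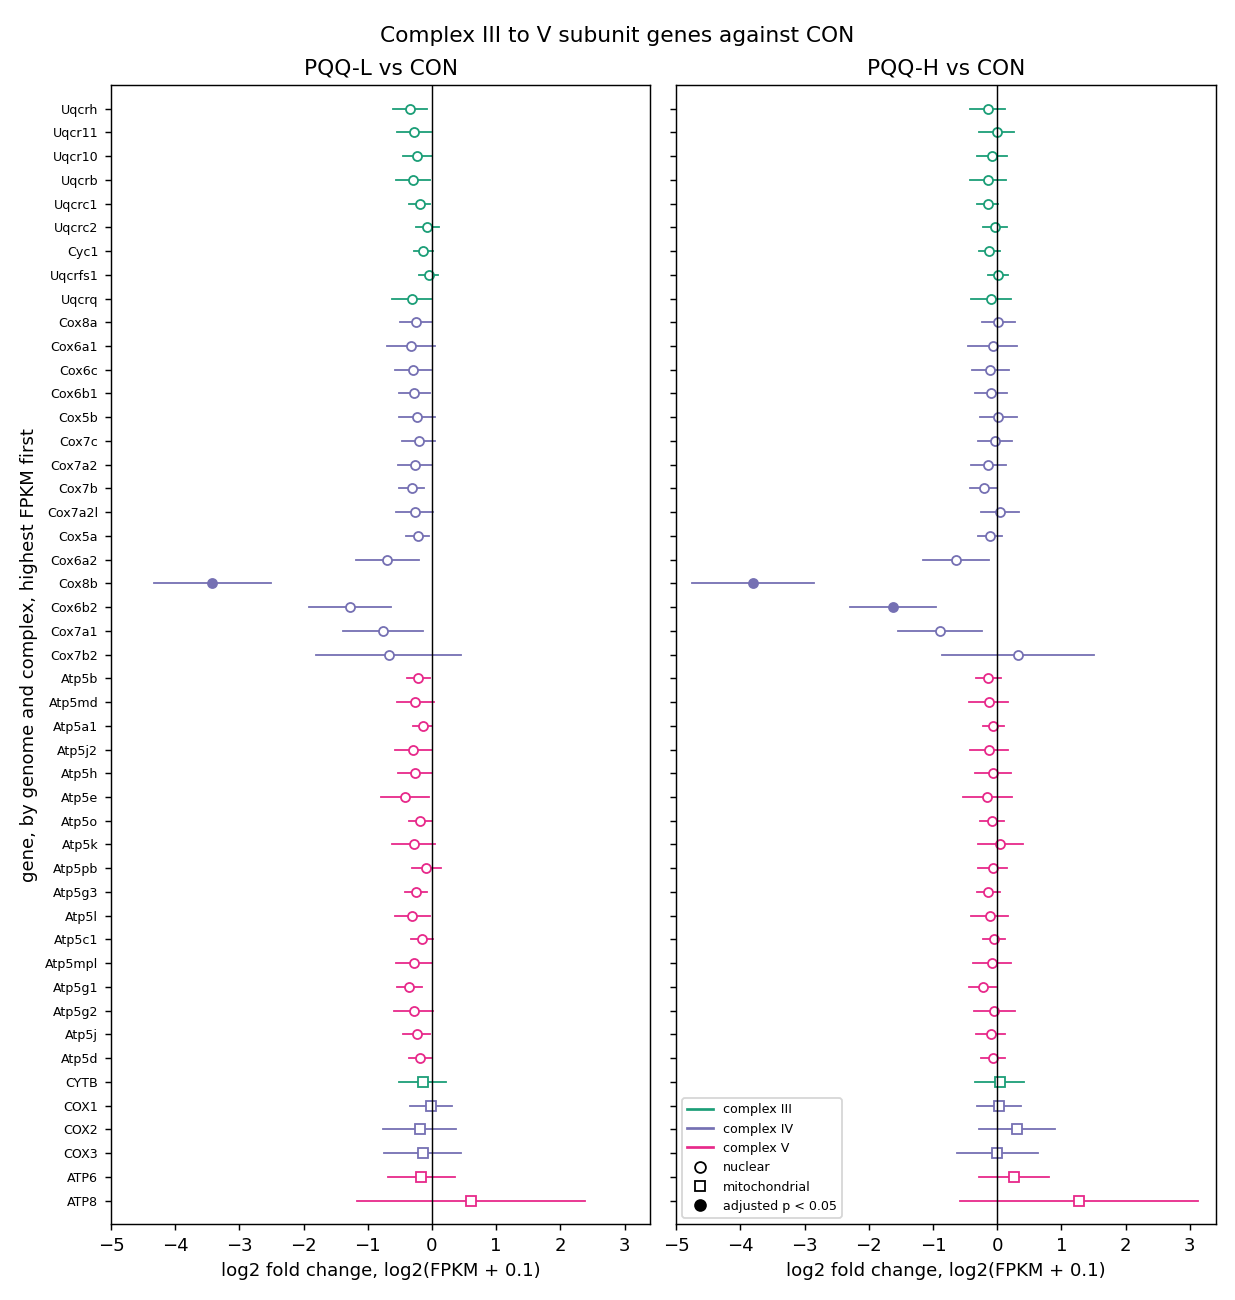
Log2 fold change of each of the 47 members against CON with its 95% confidence interval from limma, by genome and complex and from the highest to the lowest mean FPKM within each. Filled symbols passed an adjusted p of 0.05, which were Cox8b in both comparisons and Cox6b2 in PQQ-H.

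These differences depended on which controls were counted. Of the 41 nuclear members, CON 2 was the lowest control for 35. CON 1 lay above every PQQ-L library for 39 members and CON 3 for 34, but CON 2 for 13. Averaged over the 36 nuclear members other than the low isoforms, the log2 level relative to the mean of all libraries was 0.26 in CON 1, −0.06 in CON 2 and 0.19 in CON 3, against −0.15 to −0.03 in PQQ-L. Without CON 2, 25 members were called lower in PQQ-L and the nuclear median was −0.40, but the calls over all 13796 genes tested also went from 81 lower and 0 higher to 1482 lower and 1742 higher. Without CON 1 or CON 3 the nuclear median was −0.19 or −0.22, with 1 member called. CON 1 and CON 3 are also the controls with high striatal markers. Without these and the corresponding PQQ-H libraries, the nuclear median in PQQ-L was −0.07 with 30 of 41 below 0, and no member was called. Within PQQ-H, the libraries with high striatal markers had levels of −0.04 (PQQ-H 1) and 0.20 (PQQ-H 2), and the others −0.10 (PQQ-H 3) and 0.12 (PQQ-H 4). The part of the tissue composition in the difference was not tested.

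**Figure D3:**
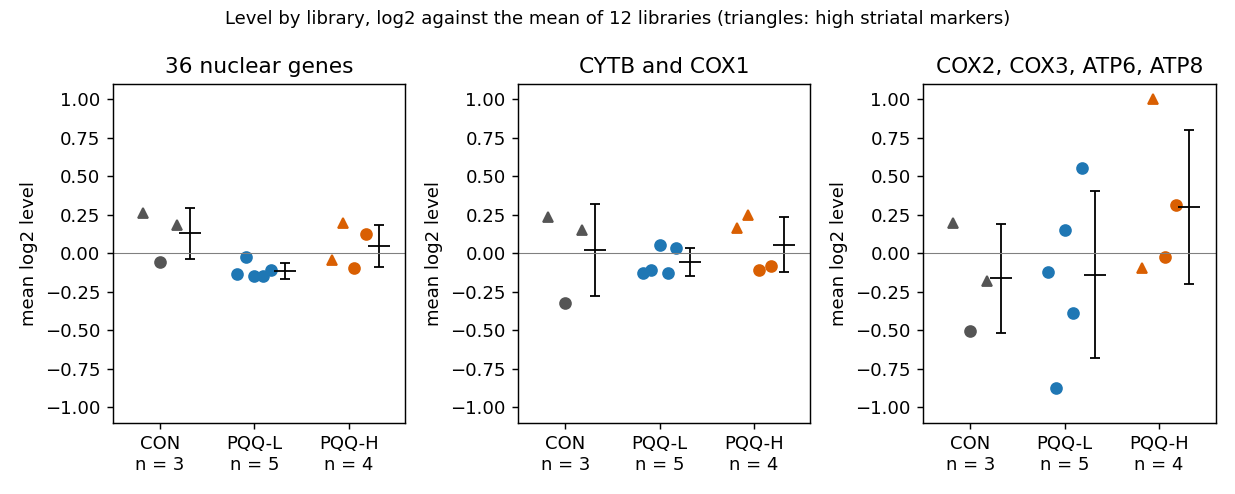
Mean log2 level per library, each gene set against its mean over the 12 libraries, for 36 nuclear members, for CYTB and COX1, and for the 4 low mitochondrial RNAs, with the mean and SD of each group as black bars and triangles for libraries with high striatal markers. The nuclear level of CON 2 (−0.06) lay within the PQQ-L range of −0.15 to −0.03, and the low mitochondrial RNAs spread from −0.88 to 0.999 with overlap between all groups.

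The nuclear members are short genes, and short genes as a class were lower in PQQ-L. The length behind the FPKM had a median of 729 bases over the nuclear members, 26 of 41 being under 1000 bases, against 3596 bases over all genes tested. Over all 910 genes tested under 1000 bases, the median log2FC in PQQ-L was −0.29 and 779 lay below 0. The median was −0.16 for genes of 1000 to 2000 bases and 0.10 for genes of 4000 bases or more. The median was lower for the shorter nuclear members as well, at −0.29 for the 26 under 1000 bases and −0.19 for the 15 others. Over all genes tested of 2000 to 4000 bases the median was −0.07, while the members of that length ranged from −0.22 to −0.15. The 15 others ranged from −0.32 to −0.05. A read on a shorter gene adds more to the sum of FPKM over all genes. This sum was 400869, 343933 and 385044 in CON 1 to 3, 344784 to 351092 in PQQ-L and 348924 to 394467 in PQQ-H. CON 2 thus lay below every PQQ-L library, while CON 1 and CON 3 lay above them. The length classes were not followed library by library. What made short genes differ, and its part in the members' values, was not tested.

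**Figure D4:**
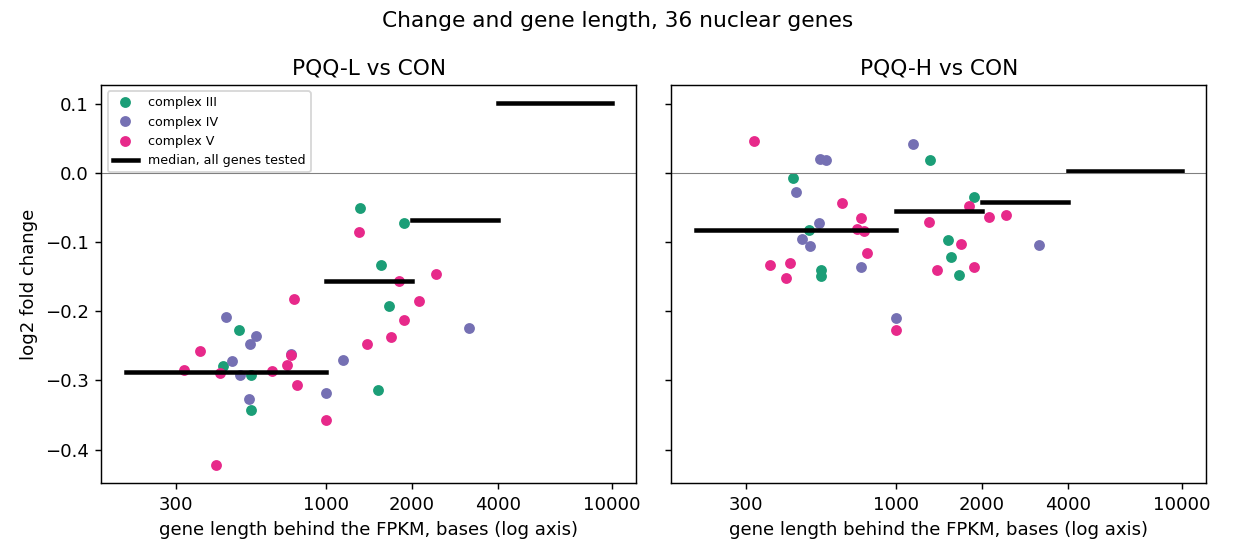
Log2 fold change against gene length for 36 nuclear members, with black bars for the median of all genes tested under 1000, from 1000 to 2000, from 2000 to 4000 and from 4000 bases upward. The outer classes are open-ended and their bars are cut at the axis. In PQQ-L the medians went from −0.29 for the shortest to 0.10 for the longest genes, and in PQQ-H from −0.08 to 0.0031.

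Other gene groups gave the same kind of values. In PQQ-L, 50 of 51 nuclear complex I genes lay below 0 (median −0.23), 4 of 4 of complex II (−0.16), 72 of 78 mitochondrial ribosomal protein genes (−0.15) and 86 of 91 cytosolic ribosomal protein genes (−0.38). The last of these, which serve translation and not respiration, thus had a lower median than any of the 3 complexes. No gene of these groups was called lower in PQQ-L.

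In PQQ-H against CON, Cox8b and Cox6b2 were called, 2 of 47 against 1.08% of all genes tested called lower. The nuclear median was −0.10, with 35 of 41 below 0 where 55.6% of all genes tested lay below 0, although under median-of-ratios scaling it was 27 of 41 with a median of −0.03. By complex it was −0.10 for complex III, −0.10 for complex IV and −0.08 for complex V. An unadjusted p below 0.05 was found for 6 members, all lower, against 7.88% of all genes tested, and 4 did not overlap (Cox8b, Cox6b2, Cox7a1 and Uqcrc1), against 5.72% of all genes tested. Uqcrc1 had 153, 147, 133 and 151 FPKM in PQQ-H, just under the lowest CON value, at 153.1 against 153.3 at the nearest (log2FC −0.15 ± 0.08, limma, adjusted p = 0.579). Among the c-ring genes, Atp5g1 had 113, 115, 128 and 134 FPKM, overlapping CON, and a log2FC of −0.23 ± 0.09 (limma, adjusted p = 0.442), while Atp5g3 and Atp5g2 had a log2FC of −0.14 ± 0.08 and −0.04 ± 0.15. Uqcr11 and Cox8a lay near 0, at −0.0063 ± 0.12 and 0.02 ± 0.12. Without the 4 libraries with high striatal markers the nuclear median was 0.05, with 11 of 41 below 0.

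PQQ-H and PQQ-L were not told apart for any member. No gene of the 13796 was called by limma at an adjusted p below 0.05 (0%, the smallest adjusted p being 0.58 among the members), nor by voom on the recovered reads, and 4 members had an unadjusted p below 0.05, all higher in PQQ-H (Cox7a2l, Cox8a, Uqcr11 and Atp5k), against 3.55% of all genes tested. The nuclear median was 0.13, with 38 of 41 above 0 where 45.7% of all genes tested lay above 0. In TPM, 11 of 41 lay below 0 and the median was 0.05. Cox8a was the member whose libraries did not overlap, with 693, 779, 726 and 742 FPKM in PQQ-H against at most 657 FPKM in PQQ-L (log2FC 0.27 with a 95% interval from 0.04 to 0.50), beside 1.42% of all genes tested. For Cox8b the difference between the doses was −0.38 with an interval from −1.22 to 0.46, and for Cox6b2 −0.34 with an interval from −0.93 to 0.24. Since both PQQ groups were compared with the same 3 CON libraries, those comparisons share their controls and do not check each other.

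**Figure D5:**
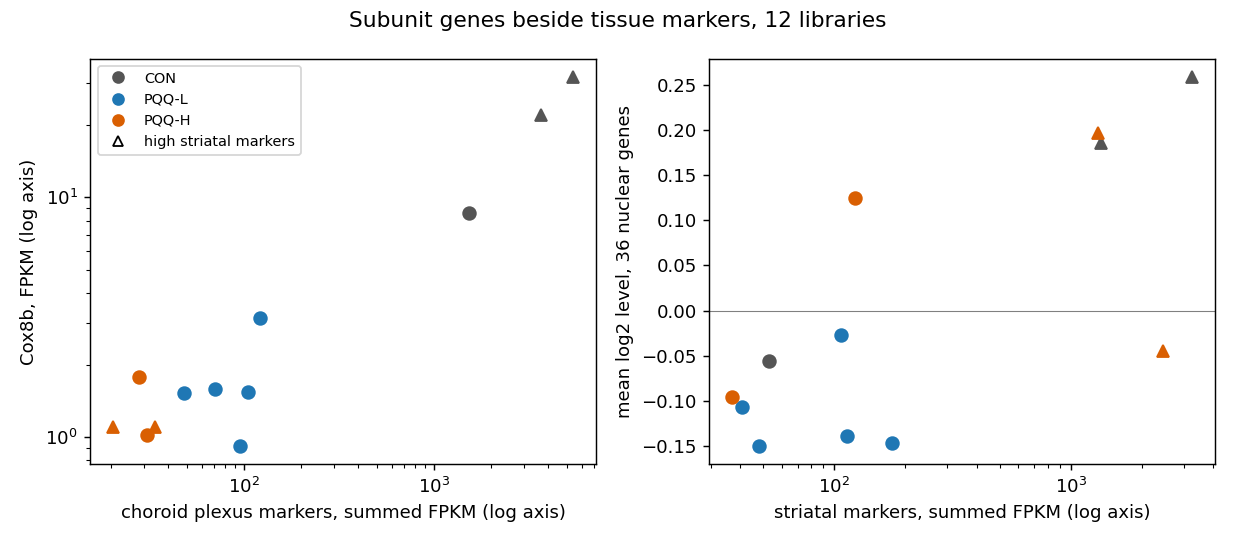
Cox8b in FPKM against the summed FPKM of 10 choroid plexus markers (left) and the mean log2 level of 36 nuclear members against the summed FPKM of 9 striatal markers (right), 1 point per library and triangles for the 4 libraries with high striatal markers. The 3 CON libraries held both the highest Cox8b, 8.64 to 31.8 FPKM, and the highest choroid plexus sums, 1542 to 5440.

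The mitochondrial genome encodes subunits of complexes III, IV and V. COX1, which carries the site where oxygen is reduced, had a mean of 16255 FPKM, and CYTB, cytochrome b of complex III, 9926 FPKM, and together they made up 97.8% to 98.8% of the summed FPKM of the 6 genes. COX2, which receives electrons from cytochrome c, had a mean of 173 FPKM, COX3 147, and the proton channel subunit ATP6 94.9. ATP8 had 24.0. All 6 are cut from the same long polycistronic transcripts, yet the last 4 lay far below COX1.

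A look at the reference showed that these 4 RNAs have near-copies or overlaps in the genome. Among annotated transcripts (GENCODE M21 on GRCm38), 99.5% of the windows of 100 bases in mt-Co2, 99.5% in mt-Atp6 and 99.9% in mt-Co3 also occur in a transcript of another gene. The corresponding share was 30.8% in mt-Co1 and 0 in mt-Cytb and mt-Atp8. The copies Gm28661, Gm10925 and Gm28437 lie next to each other on the minus strand of chromosome 1, between 24613189 and 24615565, and were identical to the mitochondrial genes over 681, 678 and 783 aligned bases. The first 60 bases of mt-Co2, shown because no read of this stretch can be placed by its sequence, are the same in both places.
mt-Co2 and Gm28661: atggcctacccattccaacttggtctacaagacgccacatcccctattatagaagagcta
ATP8 and ATP6 in turn share the 43 bases at chrM:7927-7969 on the plus strand, printed here because a read inside them belongs to both genes, with the start codon of ATP6 and the stop codon of ATP8 in capitals.
mt-Atp8/mt-Atp6 overlap: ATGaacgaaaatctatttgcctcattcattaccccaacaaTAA
How the authors treated reads that map to several places was not given in the sources used here, so the levels of COX2, COX3, ATP6 and ATP8 are uncertain, and the part of the copies in their low values was not tested. Of the 41 nuclear members, 25 had no shared window and 1, Atp5l, had over 50% shared (69.0%).

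COX1 had 18009, 13405 and 17296 FPKM in CON, 15063, 15089, 17681, 15466 and 16911 in PQQ-L, and 17100, 19164, 14854 and 15021 in PQQ-H. CYTB had 12189, 7597 and 11328 FPKM in CON, 8841, 9042, 9698, 8624 and 9809 in PQQ-L, and 11657, 11680, 9199 and 9445 in PQQ-H. CON 2 was the lowest library for both genes. All PQQ libraries lay within the CON range except PQQ-H 2, which had the highest COX1 value of all. The COX1 log2FC was −0.0085 ± 0.15 for PQQ-L and 0.03 ± 0.16 for PQQ-H, and the CYTB log2FC −0.14 ± 0.17 and 0.04 ± 0.17. The 95% interval for COX1 in PQQ-L ran from −0.34 to 0.32 and so included the nuclear median of −0.27.

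The 4 uncertain RNAs varied more between the libraries of each PQQ group, with an SD of their mean log2 level of 0.35 in CON, 0.54 in PQQ-L and 0.50 in PQQ-H, against 0.30, 0.09 and 0.18 for CYTB and COX1, so that the CON values were close. COX2 had 241, 120 and 151 FPKM in CON, 171, 109, 142, 127 and 180 in PQQ-L, and 171, 311, 181 and 174 in PQQ-H. COX3 had 206, 93.4 and 170 FPKM in CON, 106, 105, 141, 125 and 222 in PQQ-L, and 134, 179, 142 and 144 in PQQ-H. ATP6 had 133, 63.7 and 88.5 FPKM in CON, 68.4, 77.5, 98.4, 73.9 and 89.2 in PQQ-L, and 121, 143, 104 and 77.5 in PQQ-H. The groups overlapped for all 3 genes. ATP8, a small subunit beside the proton channel, spanned 3.59 to 48.3 FPKM within PQQ-L alone and 10.3 to 74.6 FPKM within PQQ-H, against 9.66 to 12.7 FPKM in CON. None of the 6 was called in any comparison, and none had an unadjusted p below 0.05.

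The 2 genomes are set side by side here, and the sign of the mitochondrial median depended on single libraries. In PQQ-L the median log2FC was −0.27 over the 41 nuclear and −0.15 over the 6 mitochondrially encoded members, of which 5 lay below 0 (4 in TPM or under median-of-ratios scaling). Without CON 1 the mitochondrial median was 0.09, with 1 below 0. In PQQ-H it was −0.10 and 0.15, with all 6 mitochondrially encoded members above 0 (COX3 at 0.0010) where 44.4% of all genes tested lay above 0. Without CON 2 the mitochondrial median in PQQ-H was −0.05 with 3 of 6 below 0, the same sign as the nuclear median of −0.20, and without PQQ-H 2 it was 0.04 with 3 below 0. Between PQQ-H and PQQ-L the nuclear and mitochondrial medians were 0.13 and 0.31. The mean level of the mitochondrial minus that of the nuclear members was −0.45 to −0.19 in CON, −0.52 to 0.53 in PQQ-L and 0.07 to 0.58 in PQQ-H. All 41 nuclear members entered this measure, with the 5 low isoforms. CON and PQQ-H did not overlap on it, whereas PQQ-L covered nearly the whole range. No p is given for it, since it is a mean over chosen genes, and 4 of the 6 mitochondrial values in it are uncertain. Without the 5 low isoforms the mean nuclear level was 0.13 rather than 0.24 in CON, and 0.045 rather than 0.0014 in PQQ-H. The level of CYTB and COX1 alone, without the nuclear level taken off, was −0.32 to 0.23 in CON and −0.11 to 0.25 in PQQ-H. These overlapped, but this is another measure. CYTB and COX1 can also be set beside the 36 nuclear members other than the low isoforms. Their levels were 0.23 and 0.26 in CON 1, and −0.32 and −0.06 in CON 2. In PQQ-H 4 they were −0.08 and 0.12, a gap between those of CON 1 and CON 2. Without the 5 low isoforms and the 4 uncertain RNAs, CON and PQQ-H thus overlapped. By the first letter of the library names, which the labels do not explain, the mitochondrial median differed in sign. It was 0.14 within L (2 against 2 libraries) and −0.56 within R (3 against 1) for PQQ-L, and 0.46 (3 against 2) and −0.42 (1 against 1) for PQQ-H. The nuclear median stayed below 0, at −0.20 and −0.41 for PQQ-L and −0.07 and −0.17 for PQQ-H, as did Cox8b, at −2.86 and −3.97 for PQQ-L.

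Subunits that the symbol rule left out were not called. Cox4i1, the common form of a complex IV subunit involved in its regulation by ATP, had a log2FC of −0.34 ± 0.16 for PQQ-L and −0.14 ± 0.16 for PQQ-H. Its counterpart Cox4i2, a form known from lung and low oxygen, had −1.22 ± 0.59 and −0.87 ± 0.61, Ndufa4 −0.24 ± 0.11 and −0.13 ± 0.11, and Cycs, the carrier between complexes III and IV, −0.06 ± 0.10 and 0.0086 ± 0.10. Assembly factors build the complexes without being part of them. None of the 6 tested for complex III, 19 for complex IV or 5 for complex V was called in any comparison. Their medians in PQQ-L were −0.16, −0.12 and −0.15 and in PQQ-H 0.03, 6.3e-05 and −0.08. At an unadjusted p below 0.05, Cox14 and Cmc1 of the 19 for complex IV and Fmc1 of the 5 for complex V lay below 0 in PQQ-L. In PQQ-H, Cox10 did. Of all genes tested, 11.6% in PQQ-L and 7.88% in PQQ-H were lower at that threshold.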

How the data were processed

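RNA was measured in 12 hippocampal libraries, grouped by the labels. The authors extracted it with TRIzol, prepared libraries with a VAHTS Universal V10 kit, cleaned reads using fastp, aligned by HISAT2 (build mm39 per the submitters' processing notes), counted with HTSeq-count and tested with DESeq2. The deposited values are FPKM per gene, computed by the authors, and the handling of multiply mapped reads and strand is not given in the sources used here. Whole reads were recovered from the FPKM for 100% of the 25563 genes above 0 in at least 2 libraries (tolerance 0.02 reads).

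Genes with a mean of at least 0.5 FPKM were tested with limma 3.58.1 in R 4.3.3 (lmFit, eBayes with trend) on log2(FPKM + 0.1), fitting the 12 libraries together, with Benjamini-Hochberg adjustment over 13796 genes and a threshold of 0.05, two-sided. The fit was tested on simulated data with 200 changed genes. Counts, ranges and medians were computed in Python 3.11.15. The members and lists were chosen with earlier results of these data known. Named genes are the mitochondrially encoded members, the 3 highest nuclear members of each complex and the 3 with the smallest p in each comparison against CON, and the second isoforms. Cox6b1, the counterpart of Cox6b2, and Cox7b2, the gene next to the filter, were named after their values were seen, and others only in counts or levels. The labels do not say whether libraries came from separate mice, so p-values measure the spread between these libraries. The alternatives were a pseudocount of 1, no filter, median-of-ratios scaling, scaling to nuclear reads, voom on the recovered reads, only the 2 groups compared, the name letter as a term, a block for the replicate number and each library left out. TPM and leaving out the 4 libraries with high striatal markers were chosen after seeing the data. Read totals bound counting error only. Gene positions are from GENCODE M21 and promoters from RefSeq, both GRCm38, matched by symbol.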

Additional observations from a re-analysis of the deposited data

Results flagged for a closer look

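Over 62 groups of 4 or 5 libraries, 4 values stood apart from the rest of their group by Dixon's criterion, which chance meets in about 1 of 20 groups, so that 4 is near the number chance gives. Cox7b had 168 FPKM in PQQ-L 2 and 154 to 157 FPKM in the other PQQ-L libraries, still below every CON library. COX2 had 311 FPKM in PQQ-H 2 and 171 to 181 FPKM in the other PQQ-H libraries, and this library also had the highest sum of 4 blood markers, 538 FPKM. Cox8b had 1.77 FPKM in PQQ-H 4 and 1.02 to 1.11 FPKM in the others, a difference of a few reads. Cox7a1 had 1.24 FPKM in PQQ-H 1 and 2.35 to 2.55 FPKM in the others.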

How the results depend on the processing

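A pseudocount of 1, no filter, scaling to nuclear reads and voom on the recovered reads changed no call and no sign among the 52 values of named genes against CON. TPM moved the median log2FC of all genes in PQQ-L from −0.03 to 0.08, and relative to it the nuclear median was lower as before (−0.16 with 38 of 41 below 0), with complex III at −0.12. COX1 in PQQ-L was then 0.10 and Uqcr11 in PQQ-H 0.017. Under median-of-ratios scaling COX1 in PQQ-L was 0.033, and in PQQ-H Uqcr11 was 0.062, Atp5a1 0.0081 and Atp5g2 0.026. The members called lower in PQQ-H numbered 1 with only the 2 groups compared, with the name letter as a covariate and with the replicate block, Cox6b2 being lost (limma, adjusted p = 0.187, 0.0544 and 0.177), and COX3 in PQQ-H was −0.0052 and −0.0035 under the last 2. The replicate numbers did not pair the libraries (r above 0.1 in 4 of 10 same-numbered pairs, from −0.619 to 0.717), and the replicate block changed no other call of a member.

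Without the 4 libraries with high striatal markers, which leaves 1 CON library, 0 members were called lower in either comparison with CON. The medians for nuclear, complex III, complex IV, complex V and mitochondrially encoded members were −0.068, −0.070, −0.061, −0.084 and 0.31 in PQQ-L, and 0.047, 0.039, 0.13, 0.047 and 0.53 in PQQ-H. In PQQ-L the sign turned for ATP6 (0.34), COX1 (0.26), COX2 (0.26), COX3 (0.52), CYTB (0.27), Uqcr10 (0.066), Cox8a (0.077), Cox6a1 (0.095), Cox6c (0.0058) and Atp5g2 (0.058). In PQQ-H it turned for Uqcrh (0.034), Uqcr11 (0.12), Uqcr10 (0.20), Uqcrb (0.094), Cox6a1 (0.15), Cox6c (0.13), Cox7b (0.029), Atp5md (0.058), Atp5g1 (0.0062), Atp5g3 (0.00029) and Atp5g2 (0.15).

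With each library left out in turn, the members called lower ranged from 1 to 25 in PQQ-L (25 without CON 2, where all genes gave 1482 lower and 1742 higher calls, and 2 without PQQ-H 3) and from 1 to 2 in PQQ-H, and the complex III median in PQQ-L from −0.37 to −0.18. Cox8b was called in every such fit. The sign turned in at least 1 such fit in PQQ-L for ATP6 (−0.42 to 0.10), COX1 (−0.14 to 0.072), COX2 (−0.41 to 0.091) and COX3 (−0.48 to 0.089). In PQQ-H it did for COX1 (−0.10 to 0.11), COX3 (−0.33 to 0.24), CYTB (−0.17 to 0.17), Cox8a (−0.14 to 0.13), Cox6a1 (−0.28 to 0.048), Atp5g2 (−0.21 to 0.052), Uqcr10 (−0.23 to 0.014) and Uqcr11 (−0.12 to 0.068). The fits with a turned sign numbered 5 for COX1 in PQQ-L, 4 for Uqcr11 in PQQ-H and 1 to 3 for each of the other values. The cause was not tested for any of these changes. Depth limits the low isoforms, with 2 to 27 reads per library for Cox7b2.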
